A study of Mus musculus with 10 samples.

Results

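Keratins 8 and 18 and a set of biliary and progenitor marker genes were measured in mouse liver after Rab5 genes were silenced. The genes were Krt8, Krt18, Krt7, Krt19, Epcam, Sox9, Cd24a, Spp1 and Prom1, 9 in all, chosen by symbol, and every probe set that the platform annotation gives to 1 of these symbols was used. A probe set is a group of short probes on an Affymetrix array that reads the 3' end of a transcript. The annotation named 8 of the 9 genes, with 15 of the 45101 probe sets in the table, and Spp1 was not analysed here. The 10 livers came from male C57BL/6 NHsd mice, an inbred strain, and no mutant allele is given in the labels. The control groups were 2 livers injected with PBS (phosphate-buffered saline) and 4 that received a control siRNA (small interfering RNA), called scrambled and non-targeting in the sample titles and luciferase in the design text. The treated group was 4 livers that received siRNA against "Rab5all", which is how the titles name the set of Rab5 genes. Both RNAs were carried in lipid nanoparticles at 1.5 mg/kg into the tail vein, and the livers were taken on day 5. RNA came from whole liver, so a change in the number of cells of a type and a change in RNA per cell cannot be told apart. The titles number the livers without saying in words that each was a separate mouse, so a p-value may speak only for the spread between samples.

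Rab5 is a small GTPase of early endosomes, the compartments that sort material taken up by the cell. Keratins 8 and 18 pair to form the intermediate filaments of simple epithelia, and in healthy liver they are the only keratin pair of hepatocytes. Cells of the bile ducts (cholangiocytes) carry this pair together with keratins 7 and 19, and share Epcam, Sox9, CD24, osteopontin (Spp1) and prominin 1 (Prom1) with the progenitor cells that appear around the ducts in some liver injuries. In liver stress, hepatocyte keratins can increase and can collect in inclusions named Mallory-Denk bodies.

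In mouse, Krt8 is a type II and Krt18 a type I keratin, and they lie next to each other on chromosome 15 although most other keratins of the 2 types sit on separate chromosomes. Their upstream sequences are shown because the pair moved together in the results below. The 250 bases before each start, from RefSeq with the assembly GRCm38.p6, lie at chr15:102004343-102004592 on the minus strand for Krt8 and chr15:102027966-102028215 on the plus strand for Krt18. Each is written 5′ to 3′ along its own gene, ending at the base before the start, and capitals mark the motif TATAA.
Krt8: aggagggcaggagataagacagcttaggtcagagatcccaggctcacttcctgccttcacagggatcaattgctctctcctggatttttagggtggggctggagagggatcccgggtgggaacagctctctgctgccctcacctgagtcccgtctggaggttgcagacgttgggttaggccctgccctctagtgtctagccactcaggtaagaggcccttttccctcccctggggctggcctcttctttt
Krt18: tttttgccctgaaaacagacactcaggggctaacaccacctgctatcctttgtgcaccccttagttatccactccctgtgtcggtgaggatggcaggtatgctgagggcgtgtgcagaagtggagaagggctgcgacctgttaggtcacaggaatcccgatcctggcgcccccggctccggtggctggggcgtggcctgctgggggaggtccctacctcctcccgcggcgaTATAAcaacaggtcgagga
The Krt18 sequence holds TATAA with its first base 19 bases before the start. Windows of 300 bases, which reach 50 bases past the start, were searched on both strands for TATAA, for CCAAT (the CCAAT box), for GGGCGG (Sp1 type), for TGANTCA (AP-1 type) and for GGAATG (TEAD type). The Krt8 window holds TATAA across the start itself, from 1 base before it on the gene's strand and from 2 bases before it on the other, so it is not in capitals. None of the other 4 motifs was in either window. Of 32851 windows of this length in the table, 24.9% held TATAA, 37.4% CCAAT, 35.7% GGGCGG, 7.81% TGANTCA and 14.7% GGAATG. Bases G and C made up 58% of the printed Krt8 sequence and 60.4% of the printed Krt18 sequence. The table had windows for 6 of the 9 genes.

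The silenced genes check the labels. Rab5a RNA in the Rab5 siRNA livers fell by 1.81 on the log2 scale against the control siRNA (SE 0.176, adjusted p = 1.49e-05), and Rab5c RNA fell by 1.99 (SE 0.111, adjusted p = 2.47e-07). Rab5b differed by -0.24 (adjusted p = 0.207) on its probe set that passed the filter on low values, which read only 3.85 to 4.49. Its other probe set, 1437446_at, was under the filter and differed by 0.17 (adjusted p = 0.418 over all probe sets). With both probe sets this dim, the values do not settle whether Rab5b RNA fell. Arrays of the same group correlated between 0.988 and 0.995 and arrays of different groups between 0.975 and 0.994, with array medians between 4.29 and 4.37. The filter kept 24281 probe sets with a value above the median of the table (4.33) in at least 2 arrays, and "called" means an adjusted p under 0.05 over all of them. Between the siRNA groups, 12.2% of the 24281 were called higher with Rab5 siRNA. Of the members' 15 probe sets, 11 passed, and none of the 11 had arrays above that median in 1 group alone. Values below are log2 RMA expression values, whose level cannot be compared between probe sets.

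Krt8 and Krt18 rose about equally in all 4 livers given Rab5 siRNA. Krt18 (probe set 1448169_at) read 11.23, 11.57, 11.96 and 11.83 in Rab5 siRNA livers 1 to 4, against 9.88, 9.90, 10.10 and 10.01 with the control siRNA and 9.98 and 9.92 with PBS. The lowest Rab5 siRNA liver thus stood above all 6 others, whose values lay close together. The difference from the control siRNA was 1.67 (SE 0.141, 95% interval 1.37 to 1.98), a fold of 3.19 (2.58 to 3.94), with an adjusted p of 4.66e-06 by limma. Krt8 read 11.25, 11.79, 11.97 and 11.91 on its probe set 1435989_x_at, against 10.03, 10.27, 10.25 and 10.03 with the control siRNA and 10.02 in each PBS liver. Here too the groups did not overlap. The difference was 1.59 (SE 0.145, interval 1.27 to 1.90), a fold of 3.00 (2.42 to 3.73), with an adjusted p of 9.10e-06.

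The other Krt8 probe sets gave the same size of change. The difference was 1.63 (SE 0.148, adjusted p = 8.72e-06) on 1423691_x_at and 1.57 (SE 0.158, adjusted p = 1.89e-05) on 1420647_a_at, again with no overlap. Against PBS, Krt18 was higher by 1.70 (adjusted p = 2.76e-05) and the 3 Krt8 probe sets by 1.64 to 1.79. Against the same PBS livers, the control siRNA differed by 0.02 for Krt18 (interval -0.35 to 0.40) and by 0.13 for Krt8 on 1435989_x_at (interval -0.26 to 0.51), neither of them called. These 2 comparisons of the Rab5 siRNA livers share their 4 arrays and are no separate evidence.

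Among the 4 Rab5 siRNA livers, number 1 was lowest and number 3 highest on all 4 probe sets of the pair. Liver 1 lay 1.11 above the control siRNA mean for Krt8 on 1435989_x_at, while livers 2 to 4 lay 1.65 to 1.83 above it. Liver 1 also had the lowest Rab5a value, 6.28 against 6.91 to 7.16 in livers 2 to 4. For Rab5c it had the highest value of the 4, 7.36 against 6.99 to 7.28 in livers 2 to 4. Without liver 1, the differences were 1.81 for Krt18 and 1.75 for Krt8 on 1435989_x_at. Leaving out each of the other siRNA livers in turn gave 1.57 to 1.72 for Krt18 and 1.51 to 1.63 for Krt8.

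**Figure D1:**
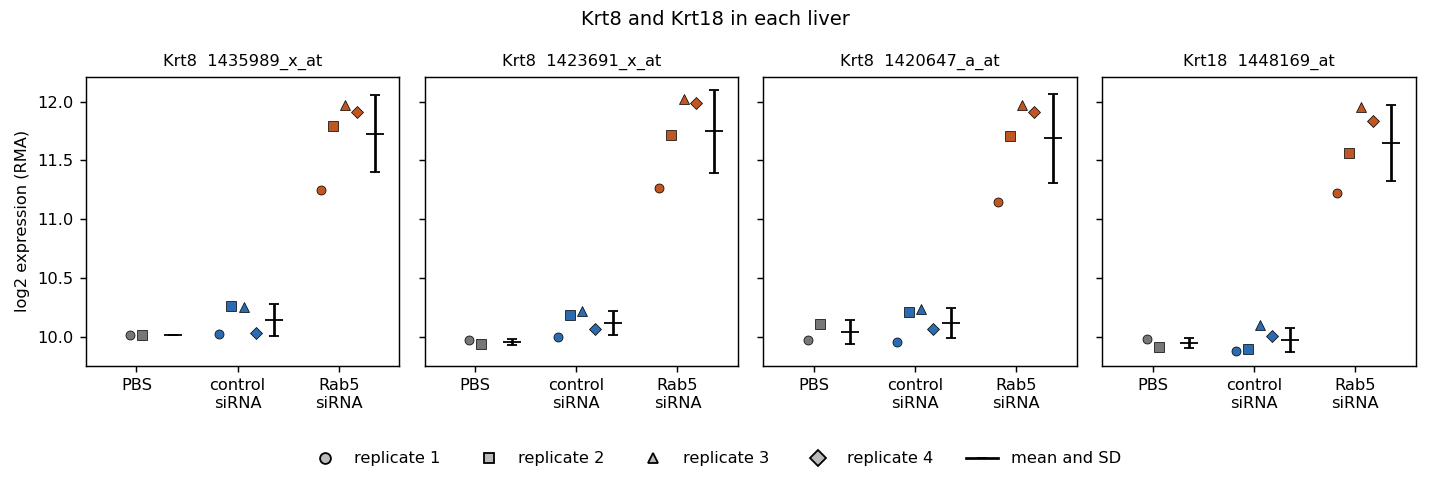
RMA expression (log2, vertical axis) of 3 Krt8 probe sets and 1 Krt18 probe set in each liver, by group, with the mean and SD of the group beside the points and the marker shape giving the liver's number. All 4 Rab5 siRNA livers sit between 11.15 and 12.03, above the 6 other livers at 9.88 to 10.27, and liver 1 is the lowest of the 4.

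No gene beside the pair on the chromosome was called higher. No other gene with a probe set on the array lies between Krt8 and Krt18. On the Krt8 side, Krt78 differed by -0.12, Krt79 by -0.06 (under the filter) and Krt4 by -0.12 and -0.11 on its probe sets, with no call. Krt78, Krt79 and Krt4 are type II keratins of stratified or glandular epithelia. On the Krt18 side, Eif4b, a translation initiation factor, was lower by 0.31 (adjusted p = 0.0484) and 0.34 (adjusted p = 0.0234) on the 2 of its 3 probe sets that were called. The first of these calls was lost without any 1 of the 8 siRNA livers (adjusted p = 0.0529 to 0.147). The other was lost without control siRNA livers 1 or 3 or Rab5 siRNA livers 2 or 3 (0.0528 to 0.0628). The focal adhesion protein gene Tns2 differed by 0.00 and Spryd3 by 0.10, with no call.

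**Figure D2:**
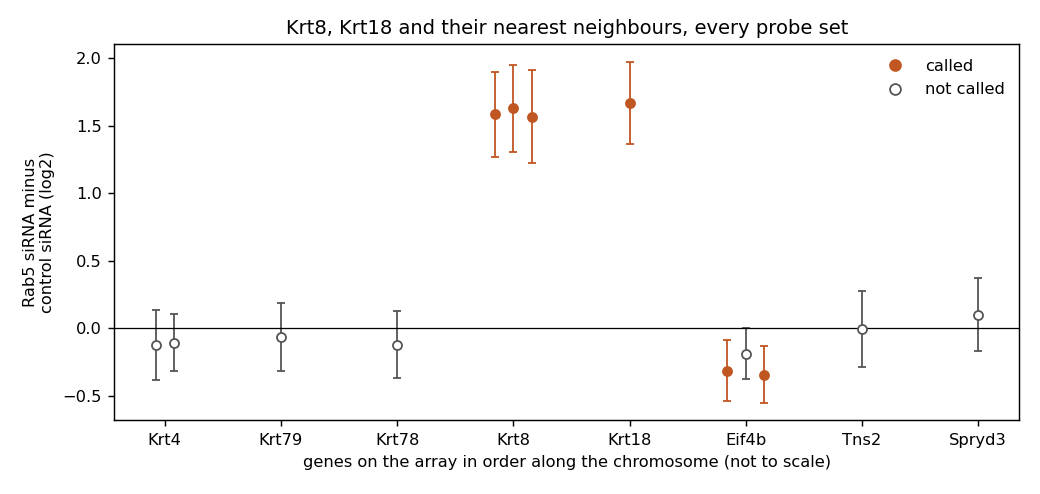
Difference between Rab5 siRNA and control siRNA (log2, vertical axis, with 95% interval) for each probe set of Krt8, Krt18 and the 3 nearest genes on the array on each side, in chromosome order and not to scale. Filled points were called. The pair lies at 1.57 to 1.67 and the neighbours between -0.34 and 0.10.

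The keratins that set bile duct cells apart from hepatocytes were not called. Krt19 (1417156_at) read 4.72, 4.60, 4.51 and 4.51 in the Rab5 siRNA livers, 4.71, 4.38, 4.50 and 4.60 with the control siRNA, and 4.31 and 4.59 with PBS. The groups overlapped throughout, close to the median of the table. The difference was 0.04 with an interval of -0.20 to 0.27 (adjusted p = 0.855), so the upper bound lies far below the changes of Krt8 and Krt18. Krt7 (1423952_a_at) did not pass the filter, with values of 2.95 to 3.58 over all 10 livers. Its difference was -0.09 (interval -0.36 to 0.18), with an adjusted p of 0.743 over all probe sets. Changes of probe sets as dim as those of Krt19 and Krt7 are compressed on these arrays. For both genes, an interval near 0 thus bounds the array signal and not the RNA.

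Sox9, the transcription factor of bile duct cells and of hepatocytes next to the ducts, was higher by a smaller amount and on 1 of its 3 probe sets. That probe set (1451538_at) read 5.81, 5.59, 5.82 and 5.48 in the Rab5 siRNA livers, 5.53, 5.07, 4.99 and 5.28 with the control siRNA, and 5.00 and 5.36 with PBS. Rab5 siRNA liver 4 fell below control siRNA liver 1, so the groups overlapped. The difference was 0.45 (SE 0.138, interval 0.15 to 0.75), a fold of 1.37, with an adjusted p of 0.0330. The call did not hold without control siRNA liver 2 (adjusted p = 0.0888), control siRNA liver 3 (0.0951), Rab5 siRNA liver 1 (0.0650), Rab5 siRNA liver 2 (0.0552) or Rab5 siRNA liver 3 (0.0963). Sox9 on 1424950_at read 4.68 to 4.96 in the Rab5 siRNA livers and 4.28 to 4.64 with the control siRNA. These groups did not overlap, yet the difference of 0.27 was not called (adjusted p = 0.101), and both PBS values, 4.81 and 4.62, lay at or near the Rab5 siRNA range. The last Sox9 probe set, 1433889_at, was under the filter and differed by 0.15 (adjusted p = 0.488 over all probe sets). Sox9 against PBS was 0.49 on 1451538_at (adjusted p = 0.0683; 0.32 without PBS liver 1) and 0.06 on 1424950_at (adjusted p = 0.841). With the mean of the gene's tested probe sets in place of each, Sox9 was called at 0.36 against the control siRNA (adjusted p = 0.0275) and differed by 0.28 from PBS (adjusted p = 0.185).

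Epcam, an adhesion molecule of bile duct and progenitor cells, was not called. Its brighter probe set, 1447899_x_at, read 6.11, 5.63, 5.75 and 5.68 in the Rab5 siRNA livers and 5.25, 5.68, 5.72 and 5.09 with the control siRNA. Rab5 siRNA liver 1 was the highest of all, and the other 3 lay within or just above the upper values of the control siRNA group. The difference was 0.36 (SE 0.155, interval 0.03 to 0.69, adjusted p = 0.122), and 0.23 with the mean of both Epcam probe sets (adjusted p = 0.147). On 1416579_a_at it was 0.09 (interval -0.31 to 0.50, adjusted p = 0.766). Against PBS, both probe sets differed by 0.45 with no overlap of the groups and no call (adjusted p = 0.137 and 0.224), and the mean of the 2 was called (adjusted p = 0.0299). With the replicate number as a block, the difference on 1416579_a_at was 0.21. The liver with the highest Epcam value on 1447899_x_at was the liver with the lowest Krt8 and Krt18 among the 4.

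Cd24a, a surface glycoprotein gene used as a progenitor marker and also expressed by immature blood cells, gave different values on its 3 probe sets. The brightest, 1448182_a_at, read 5.16, 5.59, 5.73 and 5.89 with Rab5 siRNA, 5.39, 6.33, 6.12 and 6.05 with the control siRNA, and 5.39 and 5.27 with PBS. Control siRNA liver 1 stood with the PBS livers, apart from the other 3 of its group. The difference was -0.38 (SE 0.193, interval -0.79 to 0.04, adjusted p = 0.192), and without control siRNA liver 1 it was -0.57 (adjusted p = 0.0255). It was -0.23 without Rab5 siRNA liver 1 (adjusted p = 0.387) and -0.19 with the mean of the gene's tested probe sets (adjusted p = 0.601). Cd24a on 1437502_x_at differed by 0.00 (interval -0.58 to 0.58). On 1416034_at, under the filter, it differed by -0.52 with an adjusted p of 0.0476 over all probe sets, and this p passed the threshold in 6 of 16 alternatives. The control siRNA livers exceeded the PBS livers by 0.64 on 1448182_a_at (unadjusted p = 0.0172, adjusted p = 0.999).

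Prom1, which encodes a membrane glycoprotein of progenitor cells, was under the filter in these livers. It read 3.84, 4.46, 4.15 and 4.23 with Rab5 siRNA, 4.01, 4.09, 4.01 and 4.18 with the control siRNA, and 3.66 and 3.43 with PBS. All 8 livers that received an siRNA were above both PBS livers, and the siRNA groups overlapped. The difference between the siRNA groups was 0.10 (interval -0.16 to 0.36, adjusted p = 0.701 over all probe sets). Against PBS it was 0.53 for the control siRNA (unadjusted p = 0.00350, adjusted p = 0.914) and 0.63 for the Rab5 siRNA (adjusted p = 0.0178). The last p rose to 0.0586 without PBS liver 1 and to 0.211 without PBS liver 2.

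**Figure D3:**
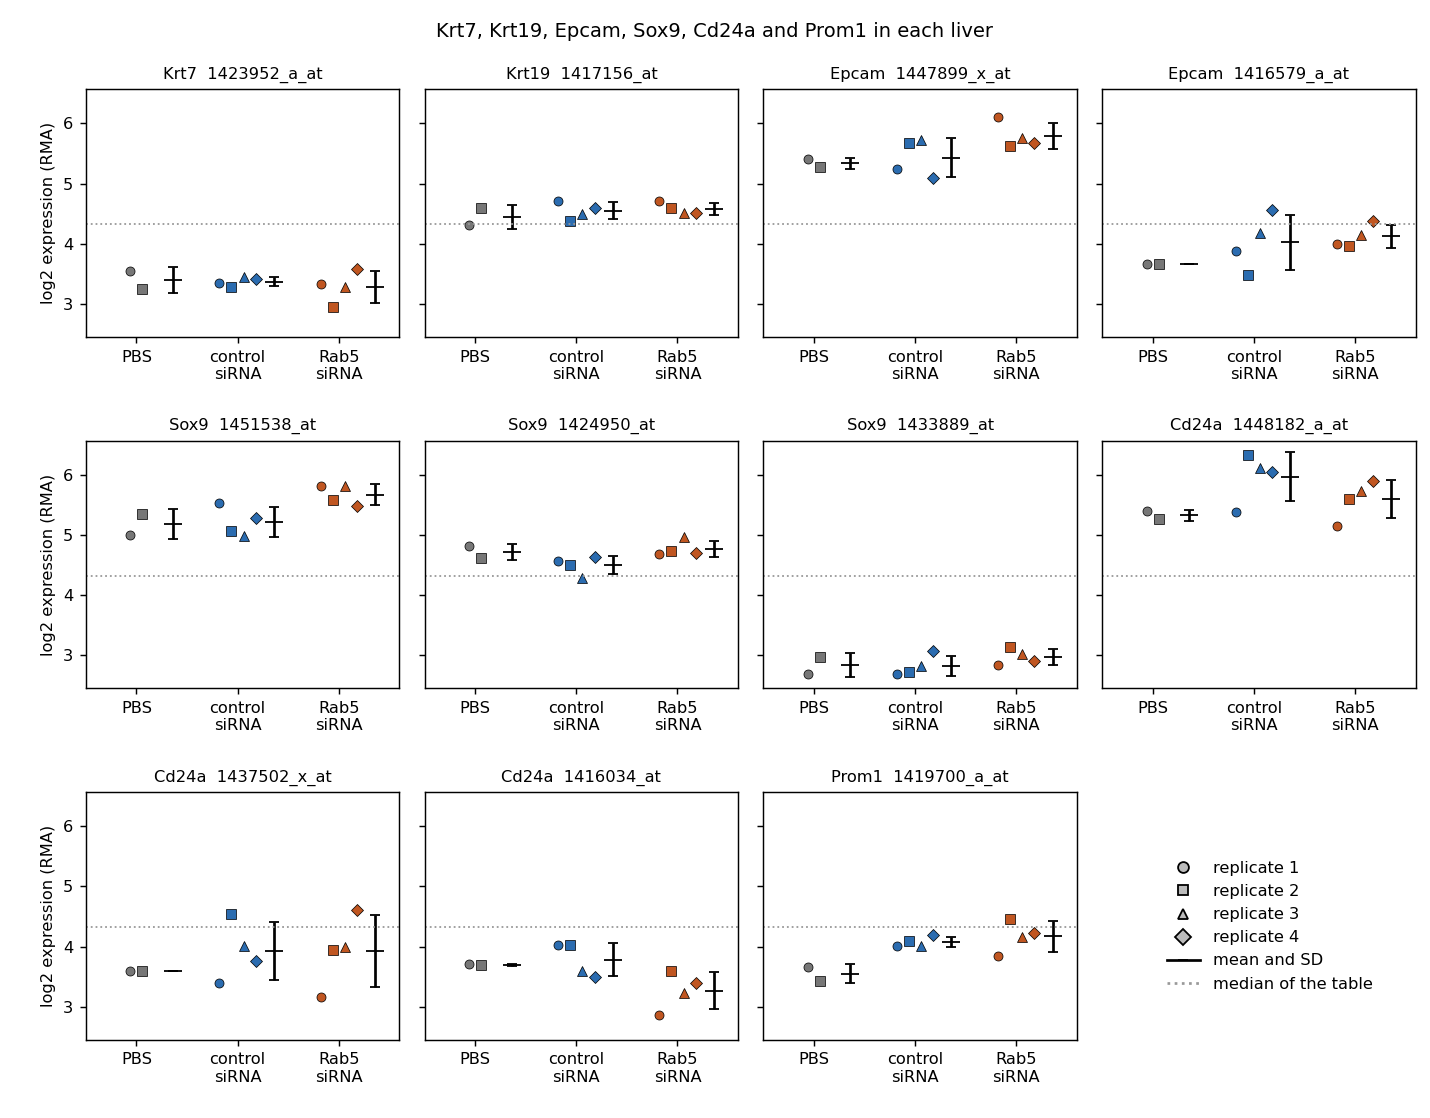
RMA expression (log2, vertical axis) of the 11 probe sets of Krt7, Krt19, Epcam, Sox9, Cd24a and Prom1 in each liver, with group means and SDs and a dotted line at the median of the table, 4.33. Most groups overlap, and in Sox9 1424950_at the 4 Rab5 siRNA livers lie above the 4 control siRNA livers.

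Counted together, 5 of the 11 tested probe sets of the members were called higher in Rab5 siRNA livers than in control siRNA livers and 0 lower. They belong to Krt8, Krt18 and Sox9. The members were chosen with earlier results of these data known, so the choice may have raised these counts. Over all tested probe sets, 12.2% were called higher, 8.96% lower and 21.1% in either direction. The 11 had a median difference of 0.36, but 3 of them read the same gene, Krt8. Without overlap of the 4 against 4 livers, 5 of 11 were higher, against 12.7% of all tested probe sets, and 0 lower, against 10.8%. At an unadjusted p under 0.05, 7 of the 11 passed, as did 8029 of the 24281 (33.1%). The median difference over the 24281 was -0.0053.

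Between control siRNA and PBS, limma called 0 of the 11 in either direction, and 0% of all tested probe sets. Without overlap of the groups, 2 of the 11 were higher and 0 lower, both of them Krt8 probe sets, against 6.44% higher and 6.59% lower over all tested probe sets. At an unadjusted p under 0.05, 1 of the 11 passed, the Cd24a probe set above, as did 1065 of the 24281 (4.39%). The PBS group had only 2 livers. Between Rab5 siRNA and PBS, 4 of the 11 were called higher, all of them Krt8 or Krt18, against 8.39% of all tested probe sets, and 0 lower, against 7.04%. In that comparison 7 of the 11 were higher without overlap, against 18.6% of all tested probe sets, and 0 lower, against 17.7%.

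**Figure D4:**
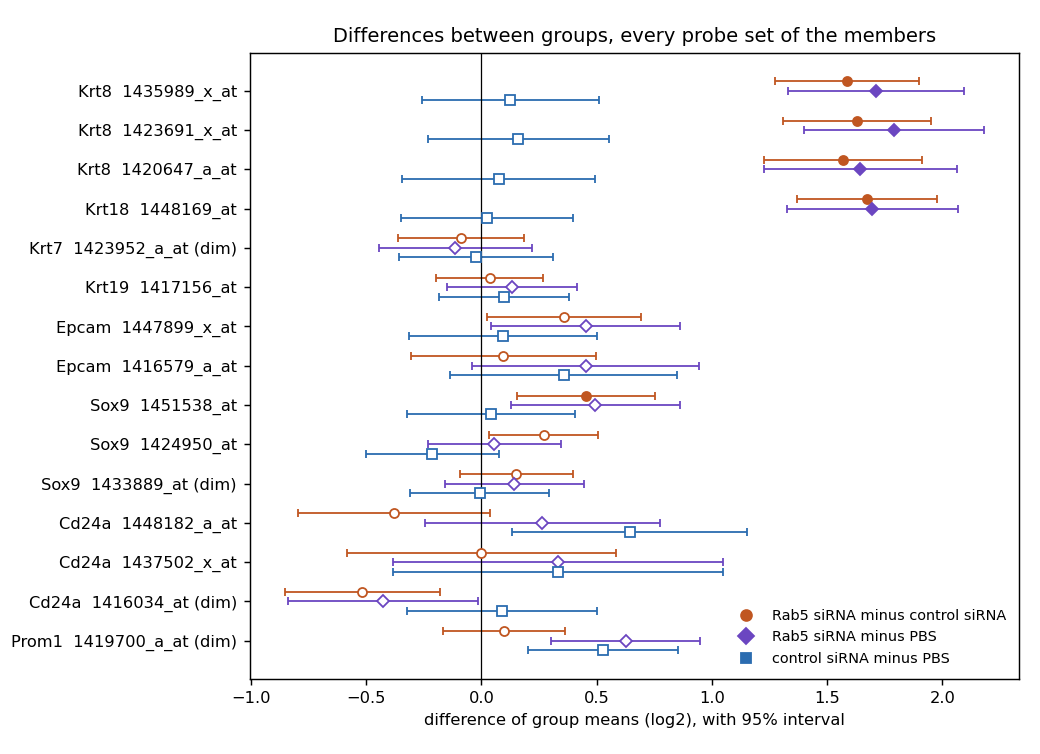
Differences between group means (log2, horizontal axis, with 95% intervals) for each of the members' 15 probe sets in the 3 comparisons, where filled symbols were called and "dim" marks a probe set under the filter, drawn open. Only Krt8 and Krt18 exceed 1, against both control groups.

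The genes around these members were described from lists, with the tested probe set of the highest mean standing for each gene. The lists too were chosen with earlier results known, so their counts carry the same limit. Chosen this way, 13.3% of all 12855 tested genes were called higher and 9.16% lower, with a median difference of 0.0026. List results compare Rab5 siRNA with control siRNA unless PBS is named. Between Rab5 siRNA and PBS, where 8.39% of all tested probe sets were called higher and 7.04% lower, calls changed in some lists. Notch pathway genes gave 2 of 14 higher and 0 lower, and endothelial markers 0 of 6 in either direction. Stellate cell and fibroblast markers gave 3 of 10 higher and 0 lower. Keratin filament partners gave 5 of 13 higher against both controls. Of 44 other keratin genes on the array, 17 passed the filter, and limma called none in either direction between the siRNA groups. Their median difference was -0.06 (range -0.29 to 0.20), and 2 had an unadjusted p under 0.05, Krt6a (-0.29, adjusted p = 0.0770) and Krt10 (-0.25, adjusted p = 0.113), both keratins of skin and other stratified epithelia. Without control siRNA liver 3, Krt6a was called (-0.38, adjusted p = 0.0209).

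Genes of proteins that bind or anchor keratin filaments rose with the pair in part, with 5 of 13 tested genes called higher and 0 lower and a median of 0.28. The cytolinker genes Eppk1 (1.51, SE 0.167) and Ppl (1.34, SE 0.157) changed most. Eppk1 read 9.15 to 9.52 with Rab5 siRNA and 7.40 to 8.13 with the control siRNA. The desmosome genes Pkp2 (0.93) and Dsp (0.84), whose proteins tie keratins to cell junctions, were also called, as was the desmosomal cadherin gene Dsg2 at 0.60. Among other intermediate filament genes 3 of 7 were higher and 0 lower, with Lmna of the nuclear lamina at 1.14, Vim of mesenchymal and blood cells at 0.96 and Lmnb1, also of the lamina, at 0.44. With the mean of a gene's probe sets Lmna differed by 0.66 and stayed called. Lmnb1 lost its call without control siRNA livers 1 or 4 or Rab5 siRNA livers 2 or 4 (adjusted p = 0.0530 to 0.0859). Among genes of keratin inclusions 3 of 9 were higher and 1 lower, with a median of -0.02. They include Tgm2, a transglutaminase that crosslinks keratins (1.24), Sqstm1, the p62 protein of Mallory-Denk bodies (0.56, and 0.34 with the mean of its probe sets, still called), and the ubiquitin ligase gene Stub1 (0.40), whose call was lost without control siRNA livers 2 or 4 or Rab5 siRNA liver 3 (0.0546 to 0.0652). The heat shock gene Hspa1b differed by -1.69 (adjusted p = 0.0247), from control siRNA values of 8.78 to 11.85, of which the highest was liver 1. Without control siRNA liver 1 the difference was -1.03 (adjusted p = 0.00529). The call on Hspa1b did not hold without Rab5 siRNA liver 3 (adjusted p = 0.0695) or with limma's trended and robust variance (0.0968). Hspa1b read 7.90 to 8.42 with Rab5 siRNA and 9.18 and 8.55 with PBS. Between Rab5 siRNA and PBS, 1 of the 9 genes of keratin inclusions was called higher and 0 lower.

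Other bile duct genes gave 2 calls higher and 0 lower among 14 tested, a share near the 13.3% of all tested genes called higher, with a median of 0.06. They were Pkhd1, the fibrocystin of primary cilia (0.64, adjusted p = 0.0241), and the epithelial transcription factor Elf3 (0.36, adjusted p = 0.0495). Pkhd1 lost its call without control siRNA liver 1 (adjusted p = 0.0743), control siRNA liver 3 (0.0639) or Rab5 siRNA liver 4 (0.0727), and Elf3 without any siRNA liver other than control siRNA liver 3 (0.0583 to 0.137). The summed level of all 16 bile duct genes on the array ran from 10.001 to 10.21 (log2) in control siRNA livers. It was 10.40 in Rab5 siRNA liver 1 and 10.085 to 10.105, inside the control siRNA range, in Rab5 siRNA livers 2 to 4. Cftr and Slc10a2, a chloride channel and a bile acid transporter of the ducts, were under the filter.

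Among progenitor and fetal genes 3 of 11 were higher and 1 lower, with a median of -0.07. Afp, the fetal serum protein, was higher by 3.51 (SE 0.303), at 6.33, 7.85, 7.90 and 8.23 against 3.96 to 4.29 with the control siRNA. With the mean of its probe sets the difference was 2.17, still called. It passed the filter through the Rab5 siRNA livers alone, so some difference was built in. Rab5 siRNA liver 1 was again the lowest of its group. Tnfrsf12a, the receptor for the progenitor mitogen TWEAK, was higher by 2.19 (SE 0.144), and the hyaluronan receptor Cd44 by 0.58 (adjusted p = 0.0273), while Thy1 was lower by 0.33 (adjusted p = 0.0283). The call on Cd44 was lost without control siRNA livers 1, 2 or 3 or Rab5 siRNA livers 2, 3 or 4 (adjusted p = 0.0598 to 0.0903). That on Thy1 was lost without control siRNA livers 1 or 4 or Rab5 siRNA livers 2, 3 or 4 (0.0665 to 0.0785).

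In the Notch pathway, which acts upstream of Sox9 in bile duct formation, 5 of 14 genes were higher and 0 lower, with a median of -0.02. The target gene Hes1 was higher by 0.71, the receptor gene Notch2 by 0.58, the ligand gene Dll1 by 0.50 and the receptor gene Notch1 by 0.45. Notch1 lost its call without control siRNA livers 1 or 4 or Rab5 siRNA livers 2 or 3 (adjusted p = 0.0502 to 0.0789). With the mean of a gene's probe sets Notch1 also lost it (0.29, adjusted p = 0.0691), and Notch2 was 0.29, still called. Among YAP pathway genes and targets 4 of 15 were higher and 1 lower, with a median of 0.08. They include Ajuba, a scaffold protein that restrains the pathway kinases (1.99), the DNA-binding partner Tead1 (0.77) and the receptor tyrosine kinase gene Axl (0.53), whose call was lost without control siRNA livers 2 or 3 or Rab5 siRNA livers 2 or 4 (0.0668 to 0.0685). The pathway's upstream gene Nf2 was lower by 0.47 (adjusted p = 0.0143), a call lost without Rab5 siRNA liver 2 (adjusted p = 0.0541) and with the mean of the gene's probe sets (-0.16, adjusted p = 0.282). Of the receptors for osteopontin 4 of 9 were higher and 0 lower, with a median of 0.19, namely Cd44 and the integrin genes Itgav (0.55), Itgb5 (0.52) and Itgb1 (0.38). Itgav lost its call without any siRNA liver other than control siRNA livers 2 and 3 and Rab5 siRNA liver 1 (0.0508 to 0.0996), and with the mean of its probe sets (0.28, adjusted p = 0.0629). Itgb1 lost it without any other than control siRNA liver 4 and Rab5 siRNA livers 1 and 3 (0.0700 to 0.102).

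**Figure D5:**
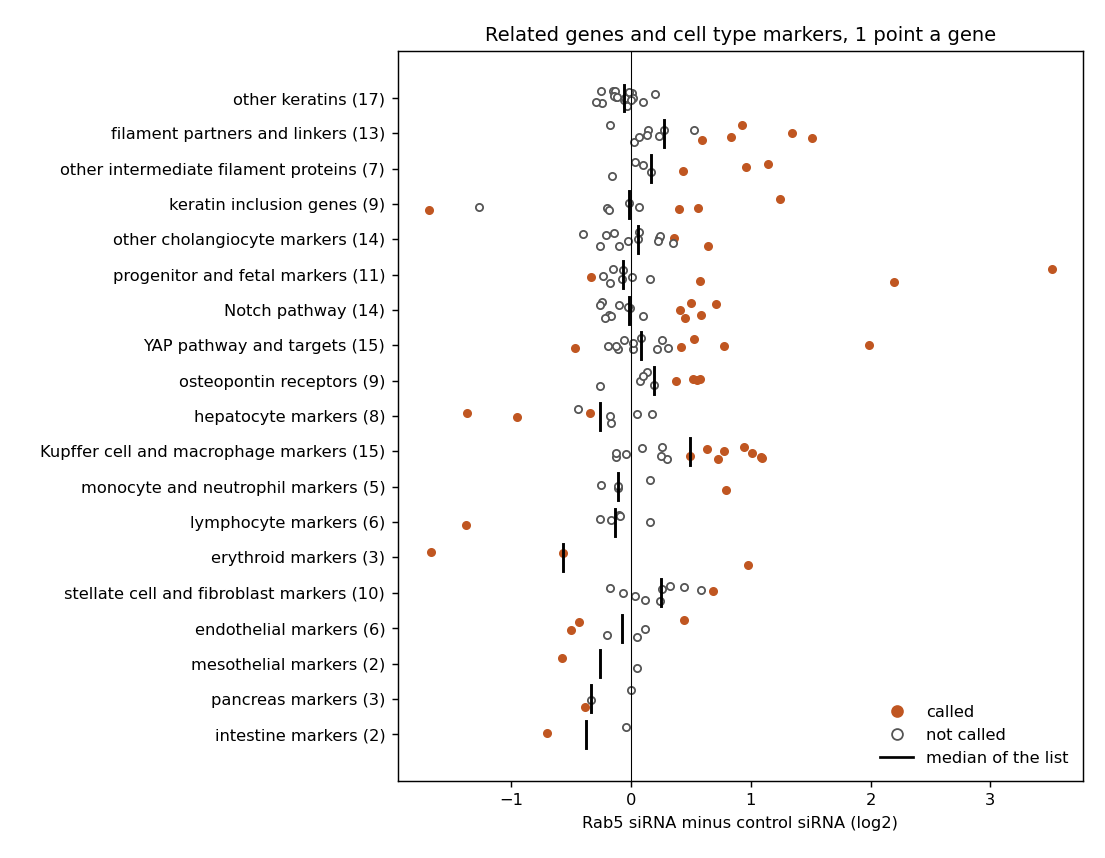
Differences between Rab5 siRNA and control siRNA (log2, horizontal axis) for each tested gene of the lists, 1 point a gene, with filled points for called genes, a bar at the list's median and the number of genes tested in brackets. The 17 other keratins lie between -0.29 and 0.20, and 8 of 15 macrophage markers were called higher.

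Some markers of macrophages and of hepatocytes also differed between the siRNA groups. Of 15 Kupffer cell and macrophage markers 8 were higher and 0 lower, with a median of 0.49, including Marco (1.09), Cd68 (1.08), Cd5l (1.01) and Mpeg1 (0.94). Marco lost its call without control siRNA livers 1, 3 or 4 or Rab5 siRNA livers 2, 3 or 4 (adjusted p = 0.0650 to 0.116), and was 0.66 with the mean of its probe sets (0.0476). Their summed level was 12.82 to 13.11 (log2) with the control siRNA and 13.26, 13.65, 13.72 and 13.64 in Rab5 siRNA livers 1 to 4. Liver 1, lowest for Krt8 and Krt18, was thus also lowest for macrophage markers, and the part of these cells in the results was not tested. Hepatocyte markers gave 0 of 8 higher and 3 lower, with a median of -0.26. They were Tat (-1.37), Cyp2e1 (-0.95) and Cps1 (-0.35), enzymes of tyrosine breakdown, drug oxidation and the urea cycle, and Cps1 lost its call without control siRNA livers 1, 2 or 4 or Rab5 siRNA livers 1 or 3 (0.0605 to 0.0907). Their summed level was 16.11 to 16.19 with the control siRNA and 15.93 to 16.05 with Rab5 siRNA.

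Blood cell markers are given because immature blood cells also express Cd24a. Lymphocyte markers gave 0 of 6 higher and 1 lower, the immunoglobulin gene Ighm (-1.38, and -0.82 with the mean of its probe sets, still called), while Nkg7 differed by -0.26 (adjusted p = 0.162). Erythroid markers gave 1 of 3 higher, the transferrin receptor gene Tfrc (0.97), and 2 lower, the haem synthesis gene Alas2 (-1.67) and the transcription factor gene Klf1 (-0.57). Tfrc lost its call with liver 2 of each siRNA group left out (adjusted p = 0.0913). The summed erythroid level was 9.25 to 9.52 with the control siRNA and 8.58 to 8.99 with Rab5 siRNA. It was 9.67 and 9.36 in the PBS livers, where Cd24a on 1448182_a_at read 5.39 and 5.27. Control siRNA liver 1 had the highest erythroid level of its group, 9.52, and the lowest Cd24a on that probe set. This sum, like the others here, leans on the probe sets that read highest. Alas2 (9.07) and Klf1 (6.46) were highest of the group in that liver, while Tfrc was lowest (6.40, against 6.69 to 6.93). The part of erythroid or other blood cells in the Cd24a values was not tested. Monocyte and neutrophil markers gave 1 of 5 higher, Plac8 (0.79), and 0 lower, with Csf3r at -0.25 (adjusted p = 0.195). Plac8 lost its call with the same livers left out (adjusted p = 0.0627). Their summed level was lowest in control siRNA liver 1 (9.13, against 9.74 to 10.34 in the other 3), the liver that was also lowest of its group for Cd24a on 1448182_a_at.

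Of 10 stellate cell and fibroblast markers 1 was higher, Acta2 (0.69), 0 were lower and 3 were higher with the mean of each gene's probe sets. Col3a1 differed by 0.59 (adjusted p = 0.0869), and without Rab5 siRNA liver 1 it was called at 0.82 (0.00461), while without Rab5 siRNA liver 4 it was 0.37 (0.230). Endothelial markers gave 1 of 6 higher, Cdh5 (0.44), and 2 lower, Gpr182 (-0.50) and Clec4g (-0.43). Clec4g lost its call with liver 2 of each siRNA group left out (adjusted p = 0.0540). Cdh5 lost its call without control siRNA livers 1 or 3 or Rab5 siRNA livers 2 or 3 (0.0576 to 0.0811). Mesothelial markers gave 0 of 2 higher and 1 lower (Upk3b at -0.57, a call lost with the mean of its probe sets at -0.32, with Upk1b at 0.05 and not called). Intestine markers gave 0 of 2 higher and 1 lower (Lgals4 at -0.71, with Fabp2 at -0.04 and not called). Pancreas markers gave 0 of 3 higher and 1 lower, Prss2 (-0.38), a call lost without Rab5 siRNA liver 2 (0.0528) and with the mean of its probe sets (-0.22, 0.114). Cela1 differed by -0.33 (adjusted p = 0.105) and was called without control siRNA liver 3 (0.0491) or Rab5 siRNA liver 1 (0.0257). The mesothelial lining of the liver carries keratins 8, 18, 7 and 19, and its markers Msln, Wt1, Lrrn4, Gpm6a and Muc16 were under the filter. Summed over all 7 mesothelial markers, the level was 6.91 to 7.10 with the control siRNA and 6.66 to 7.15 with Rab5 siRNA. The difference between the 3' and 5' Gapdh control probe sets, a sign of RNA quality, was 2.19 to 2.86 with the control siRNA and 2.29 to 2.67 with Rab5 siRNA. With PBS it was 2.15 and 2.58. Liver 2 was the highest of each group.

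The closeness of 2 profiles was measured as the root mean square difference over the 10 arrays after each was set to 0 at its control siRNA mean. Profiles were not scaled, so genes with a similar change between groups come out close, and closeness is no separate evidence. Krt8 on 1435989_x_at and Krt18 differed by 0.120 (log2), and 0 of 20350 tested probe sets of other genes came closer to Krt8. These 20350 have 1 symbol each, and members and symbols ending in Rik or made of Gm, LOC or BC with digits were left out. The nearest such gene for both was Lgals3, galectin 3, a carbohydrate-binding protein of macrophages and stressed epithelia, at 0.128 from Krt8 and 0.138 from Krt18. Lgals3 read 8.78 in Rab5 siRNA liver 1 and up to 9.07 in livers 2 to 4, 7.21 to 7.48 with the control siRNA and 7.32 in both PBS livers. Next to Krt8 came a second Afp probe set (1436879_x_at) at 0.156 and Smoc2, a matricellular protein gene, at 0.158, both of which passed the filter through Rab5 siRNA livers alone. Next to Krt18 came the transcription factor Ets2 at 0.138 and Ywhah, a 14-3-3 protein gene, at 0.180. Ets2 read 8.61, 8.88, 9.32 and 9.11 with Rab5 siRNA, with livers 1 and 3 again lowest and highest. Closest to Sox9 on 1451538_at were Rnf26 (0.111), Zbp1 (0.126) and the non-coding RNA gene Morrbid (0.138), with differences between the siRNA groups of 0.36, 0.59 and 0.34.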

How the data were processed

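The deposited table holds log2 expression values, made by the authors with Affymetrix Expression Console, RMA and Partek 6.6, per the submitters' processing notes, which give no order. RMA equalises array distributions, so a shift of all transcripts in a group would not be seen. With 2 to 4 arrays a group, precision is limited. Gene names came from the platform annotation: 34945 probe sets had 1 symbol, 932 several and 9160 none, with 64 control probe sets left out. The filter left 24281 probe sets. A means model over all 3 groups was fitted with limma 3.58.1 (lmFit, eBayes) in R 4.3.3 with Benjamini-Hochberg adjustment, and tested on simulated data. For probe sets under the filter the model was fitted to all probe sets. The members and lists were chosen with earlier results of these data known. By rule, the text names every member, up to 4 called genes of a list by size (up to 2 of the largest where under 2 were called), the 3 nearest neighbours on each side and the 3 closest profiles, and Dsg2, outside it, was added after its value was seen. Livers with the same number in both siRNA groups deviated together (correlation 0.116 to 0.365 in 4 of 4 pairs). Of the 4 control siRNA arrays, 3 correlated best with the Rab5 siRNA array of their own number. The numbers were taken to pair livers only in an alternative fit, the replicate block. The main fit did not pair them, and no label says what a number marks. Other normalizations, filters, probe set choices, fits and left-out arrays were tried.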

Additional observations from a re-analysis of the deposited data

Results flagged for a closer look

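No probe set of the members had a liver far from the rest of its group. Of 184 groups of 4 livers examined over the genes named, 5 had a single value far from the others by Dixon's test, and chance flags about 5% of such groups. Control siRNA liver 1 was low for Dsp, at 8.56 with the other 3 at 8.95 to 9.03, and high for Nf2, at 6.98 with the others at 6.58 to 6.64. It was also low for Plac8, at 8.02 with the others at 8.39 to 8.43. Rab5 siRNA liver 1 was low for Smoc2, at 4.28 with the others at 5.06 to 5.21. Rab5 siRNA liver 4 was low for Zbp1, at 5.54 with the others at 5.73 to 5.77.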

How the results depend on the processing

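Krt8 and Krt18 stayed called against the control siRNA in every alternative tried, with differences of 1.57 to 1.81 for Krt18 and 1.47 to 1.79 for the Krt8 probe sets. The number of probe sets called between the siRNA groups was 5133, against 2993 with 1 probe set a gene and 2915 with the mean of a gene's probe sets, which test fewer features, 3074 without the arrays numbered 2 (chosen after seeing the data) and 3827 to 5836 with each array left out. Between control siRNA and PBS it was 0, against 2 with quantile normalization, 7 with array weights and 0 to 18 with each array left out (18 without control siRNA liver 4). Between Rab5 siRNA and PBS it was 3746, against 2201, 2183 and 1816 to 4398 in the same order (1816 without PBS liver 1, 2110 without PBS liver 2). The replicate block, which pairs livers by number, gave 6374 calls between the siRNA groups and 1 between control siRNA and PBS. It turned the difference between control siRNA and PBS to -0.14 for Krt18 and -0.069 for Krt8 on 1420647_a_at, called Col3a1 (adjusted p = 0.00889) and changed no other call or direction of a gene named here. Without the arrays numbered 2, Sox9 on 1451538_at lost its call (adjusted p = 0.128), as did 20 of the 60 called probe sets named besides the members: those of Axl, Cd44, Cdh5, Clec4g, Cps1, Elf3, Itgav, Itgb1, Marco, Morrbid, Nf2, Notch1, Plac8, Prss2, Rnf26, Stub1, Tfrc and Thy1 and both of Eif4b. Of the same 60, 5 lost their call with the mean of probe sets (Itgav, Nf2, Notch1, Prss2, Upk3b), 4 with quantile normalization (Elf3, Itgb1, Lmnb1, Rnf26), 3 without the filter (Eif4b, Elf3, Itgb1), 2 with trended and robust variance (Hspa1b, Marco), 1 with array weights (Cps1) and 1 with centred arrays (Eif4b). Array weights added calls for Col3a1 (0.0252) and Cela1 (0.0459). Sox9 against PBS gained a call with array weights (0.0483). The mean of each gene's probe sets gave 0 calls for the mesothelial and pancreas markers and 3 for the stellate markers. Where the cause is not given by fewer features or samples, it was not tested.

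Directions that turned belong to differences near 0. Between the siRNA groups, Cd24a on 1437502_x_at gave 0.025 with quantile normalization, 0.027 with arrays centred on the median, 0.019 with array weights and 0.20 without the arrays numbered 2. In that last setting Epcam on 1416579_a_at gave -0.032, Krt19 -0.026, Fabp2 0.026 and Tns2 0.054, and Tns2 gave 0.023 with centred arrays and Upk1b -0.089 with array weights. Between control siRNA and PBS, Krt18 gave -0.013 with centred arrays and Sox9 on 1451538_at -0.086 with the mean of its probe sets. With each array left out, the differences between the siRNA groups ran from -0.23 to 0.25 for Cd24a on 1437502_x_at, -0.085 to 0.27 for Epcam on 1416579_a_at, -0.020 to 0.090 for Krt19, -0.19 to 0.022 for Krt7, -0.15 to 0.039 for Krt79, -0.23 to 0.11 for Fabp2, -0.095 to 0.15 for Upk1b and -0.10 to 0.088 for Tns2. Between control siRNA and PBS they ran from -0.0034 to 0.21 for Epcam on 1447899_x_at, -0.021 to 0.055 for Krt18, -0.044 to 0.24 for Krt19, -0.18 to 0.13 for Krt7, -0.15 to 0.13 for Sox9 on 1433889_at and -0.14 to 0.22 on 1451538_at. Between Rab5 siRNA and PBS they ran from -0.0083 to 0.27 for Krt19, -0.27 to 0.039 for Krt7 and -0.040 to 0.15 for Sox9 on 1424950_at.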
